A study of Mus musculus with 8 samples.

Results

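An antisense site is an alternative polyadenylation site (APS) whose strand is opposite to that of the gene it was assigned to. They were taken from a table of APSs in mouse gastrocnemius muscle as every row with an assigned gene and a site strand other than the gene strand. The rule held for 4926 APSs of 3596 genes, out of 56483 APSs in all, of which 49783 had a gene, so that 9.89% of the gene-assigned APSs were antisense and 44857 were sense. The libraries were WTTS-seq libraries (whole transcriptome termini site sequencing), in which each read starts at the 3′ end of a polyadenylated RNA and keeps its strand, so a count is a number of reads ending at that APS.

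The 8 libraries fell into 4 groups of 2 mice. The first pair of groups was AMPKα1 KO, mice homozygous for a deletion in Prkaa1, the gene of 1 catalytic subunit, with its WT controls. The other pair was AMPKα2 KO, with such a deletion in Prkaa2, the gene of the other catalytic subunit, again with WT controls. AMPK is the kinase that senses a low energy charge of the cell. The sample labels give C57BL/6, adult, skeletal muscle for every mouse, while the study's methods give 129S2/SvPas at about 6 weeks for AMPKα1 KO and C57BL/6 at about 8 weeks for AMPKα2 KO, with no age for the WT mice. The p-values of KO against WT rest on the spread between 2 mice a group. Those between the models and of the interaction rest on all 8 libraries. Strain, age and cohort change together with the model, and their parts in any difference between the models cannot be told apart. The KO alleles lack part of the sequence coding for the catalytic domain, so reads at 3′ ends do not check the labels. Prkaa1 sense reads were 0 and 82 in AMPKα1 KO and 15 and 0 in the AMPKα1 WT mice, and Prkaa2 sense reads were 40 and 71 in AMPKα2 KO and 87 and 62 in its WT mice.

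Antisense RNA is made from the DNA strand that a gene does not use. Some antisense RNAs are separate genes that overlap the host, tail to tail or in an intron, such as Airn in Igf2r and Nr1d1 beside Thra. Others are long noncoding RNAs (lncRNAs) with their own promoters. A cleavage site is usually marked by AATAAA some bases upstream, which the cleavage machinery binds. An oligo(dT) primer can also anneal to a run of As inside an RNA, so that the read then marks the run rather than an end. Both strings can be looked for around an antisense site.

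The sequences below show antisense sites with 2 features of the bases, AATAAA before the site and an A-rich stretch after it, which can occur together. The bases were rebuilt from GENCODE release 21 transcripts on GRCm38, 5′ to 3′ on the strand of the site. Shown first are 6 of the most read sites among those in an exon of another gene on their own strand and with AATAAA in the last 30 bases up to the site (capitals mark it). The Nup133 site also had an A-rich stretch downstream.
Arsg host, in Wipi1 (chr11:109573331-109573360, minus strand): acactaattaAATAAAatcatggcaatgca
Sh2d7 host, in Cib2 (chr9:54544794-54544823, minus strand): ctagaAATAAAacactttttgtgtgctgca
Zfp512b host, in Uckl1os (chr2:181582253-181582282, plus strand): ttgcaAATAAAacactttgtagatagaata
Nup133 host, in Gm29773 (chr8:123900145-123900174, plus strand): gtgtacttatatacaataAATAAAttaaaa
Plcg1 host, in Zhx3 (chr2:160765789-160765818, minus strand): taactgttcctaAATAAAaatgtacagaca
Atcay host, in Atcayos (chr10:81209162-81209191, plus strand): gctAATAAAgtcttgttttcttttttcttt

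Shown next are the 30 bases downstream of 6 of the most read sites among those antisense to an exon, with no annotated gene on their own strand and an A-rich stretch (7 As in a row, or 8 in 10 bases) downstream. Capitals mark the longest run of As.
Fhl3 host (chr4:124708322-124708351, minus strand): AAAAAAAAAAAAAAAAAAAAAAAAAAAAAA
Mustn1 host (chr14:30881061-30881090, minus strand): AAAAAAAAAAAgttcgtggggaggctcctg
Tnks2 host (chr19:36892720-36892749, minus strand): aaagAAAAAgcaattccattattataaagg
Pitpnc1 host (chr11:107211765-107211794, plus strand): AAAAAAAAAAAAAAAgttttctcatccatt
Dpysl2 host (chr14:66804516-66804545, plus strand): AAAAAAAAAAAAAAAAAAAAAAAAAAAAAA
Pam host (chr1:97821448-97821477, plus strand): AAAAAAAAAAAAAAAAAAAAAAAAAAAAAc

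The first set had between 379 reads (Atcay) and 998 reads (Arsg) over the 8 libraries, and the second between 536 (Pam) and 12109 (Fhl3). The Arsg site, in an exon of Wipi1, a gene of autophagosome formation, had 170 and 269 reads in AMPKα1 KO, 125 and 223 in AMPKα1 WT, 63 and 52 in AMPKα2 KO and 59 and 37 in AMPKα2 WT. It was read in all 8 libraries. The raw reads were fewer in AMPKα2, while on the TMM scale the site averaged 29.6 CPM in AMPKα1 and 41.2 in AMPKα2 (edgeR adjusted p = 0.580). The Pam site had 126, 72, 102 and 231 reads in the AMPKα1 libraries and at most 4 in any AMPKα2 library.

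Downstream bases could be rebuilt for 736 antisense sites (14.9%) and upstream bases for 744 (15.1%), because most lie in introns for which no genome sequence was used here. A comparison of the whole class by sequence is void for that reason, and no p is given. Among the sites with bases, an A-rich stretch followed 36.0% of antisense and 23.1% of sense sites, and AATAAA stood in the 50 bases upstream of 25.4% of antisense and 35.8% of sense sites. AATAAA was found at 35.7% of the 185 antisense sites in an own-strand exon and at 18.4% of the 347 with no own-strand gene. Neither string was found at 43.0% of the 683 antisense sites with both windows, against 52.1% of sense sites. These strings do not say whether a site is a true RNA end.

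Antisense sites were shallower than sense sites. The median was 36 reads over the 8 libraries (quartiles 25 and 62) against 53 (30 and 133), and 33.3% of antisense against 52.4% of sense sites had at least 50 reads. A read in all 8 libraries was found for 522 antisense sites (10.6%) and 8768 sense sites (19.5%). At 995 antisense sites (20.2%), 1 library held at least 90% of the reads, against 15.5% of sense sites. The agreement of replicates differed by group, with no test. Of the antisense sites with at least 50 reads in one AMPKα1 KO mouse, 231 of 492 (47.0%) had none in the other, against 29.5% of sense sites. The same was true of 26 of 223 in AMPKα1 WT, of 2 of 176 in AMPKα2 KO and of 4 of 161 in AMPKα2 WT. Single sites in AMPKα1 KO are thus known with less precision than those in AMPKα2. Library totals ran from 2311242 (AMPKα1 WT 1) to 3549156 reads (AMPKα2 WT 1), at which 3 reads, taken here as the floor, equal 0.845 to 1.30 CPM (reads scaled to library size). Sense reads of muscle markers (Acta1, Ckm, Myh4, Mylpf and Tnnt3) made up 35799 to 84255 CPM in every library.

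Most antisense sites faced an intron. On the GENCODE annotation, 3478 of 4905 placed sites (70.9%) lay opposite an intron, 634 (12.9%) opposite an exon and 793 (16.2%) outside any gene span on that strand. On their own strand, 69.3% had no annotated gene, 916 (18.7%) lay in an intron and 187 (3.81%) in an exon of another gene, and 404 (8.24%) within 2000 bases downstream of one. Of the 187, the gene was protein coding for 103 and of the GENCODE type antisense for 23. A read weighted share was compared within each library. Sites inside another own-strand gene took 16.2 to 29.7% of antisense reads and 6.86 to 15.1% of sense reads. The share was higher in antisense in 8 of 8 libraries (mean difference 12.7 percentage points ± 6.94 SD). The host itself was not counted, so a sense site needed a further gene on its strand, while any own-strand gene counted for an antisense site. The direction largely follows from that definition and all libraries share the annotation, so no p is given.

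The position along the host also differed from that of sense sites. The decile of the host nearest its 3′ end held 731 of 4597 placed antisense sites (15.9%), and each other decile 8.38 to 10.8%, whereas 36.5% of sense sites lay in that decile. By reads, the 3′ decile held 16.9 to 26.4% of antisense reads in AMPKα1 and 0.942 to 1.81% in AMPKα2. Of sense reads it held 68.0 to 75.5% and 24.3 to 33.6%, so both strands were lower in AMPKα2. With each read site counted once, it held 13.7 to 16.1% of antisense sites in AMPKα1 and 14.9 to 15.4% in AMPKα2. The share by reads was lower for antisense than for sense in 8 of 8 libraries (mean difference -39.4 percentage points ± 11.1 SD). The libraries capture 3′ ends, which for sense RNA of the host lie mostly near its 3′ end. The direction was thus largely set by the assay, and the feature was added after seeing the data, so no p is given. Where the gene also had a sense site (3166 antisense sites), the nearest one was 8426 bases away at the median, and 93 antisense sites (2.94%) had one within 100 bases.

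**Figure D1:**
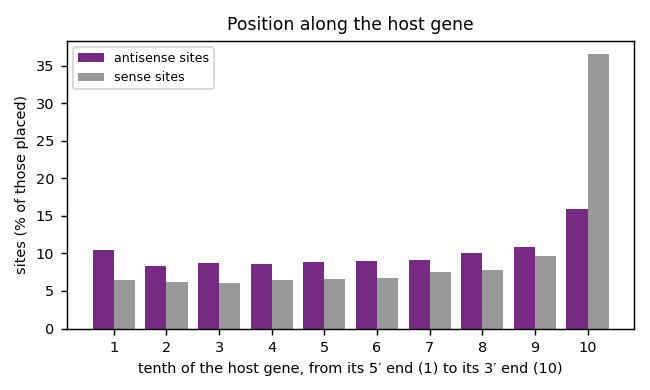
Sites per decile of the host gene as a percent of the sites placed (y axis), from the 5′ end to the 3′ end (x axis), for 4597 antisense (purple) and 40150 sense (grey) sites. Antisense sites are spread over the gene with 15.9% in the 3′ decile, where sense sites reach 36.5%.

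Host genes were more often lncRNAs than those of sense sites. Protein coding hosts held 3754 antisense sites (76.2%) and lncRNA hosts 1046 (21.2%), against 92.8% and 3.38% of sense sites. By reads, lncRNA hosts held 19.7 to 34.9% of antisense and 1.31 to 4.37% of sense reads, higher in 8 of 8 libraries. The mean difference was 20.9 percentage points ± 4.88 SD. In AMPKα2 most of these antisense reads were at the sites of Gm36876 and LOC108168339, described below. With each read site counted once, lncRNA hosts held 19.6 to 22.1% of antisense and 2.77 to 3.21% of sense sites per library. All libraries share the sites and their host biotypes, so no p is given. A single antisense site was found in 2804 hosts (78.0%), and 47 had at least 5.

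Of the 10 hosts with most antisense sites, 8 had some of them inside another gene. Cmss1 had 50, of which 37 lay in introns of Filip1l, a gene on the opposite strand. Those 37 sites held 883 and 1424 reads in AMPKα1 KO, 618 and 1564 in AMPKα1 WT, 130 and 213 in AMPKα2 KO and 158 and 117 in AMPKα2 WT, while the 7 sense sites of Filip1l held 834 reads over all 8 libraries. The 12 sites of the lncRNA Gm33190 all lay in introns of Ano5, a membrane protein whose loss causes muscular dystrophy, and held 873 reads against 998 at the 10 sense sites of Ano5. The 10 sites of Lrrtm3 all lay in introns of Ctnna3, which encodes an α-catenin of heart and muscle, and held 824 reads. Of 10 sites of Mib1, 7 lay in introns of Mir133a-1hg, the host transcript of a muscle microRNA, with 692 reads. Nup133 had 8 antisense sites, all inside Gm20388 or Gm29773, and Nr6a1, an orphan nuclear receptor gene, had 12, of which 5 lay inside Nr6a1os, its annotated antisense gene. Wwox and Tecpr2 (11 each) had no annotated own-strand gene at these sites. Arhgap26 and Atxn1 had 9 each, of which 4 lay in Fgf1 and 2 in Gmpr.

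Of the 3596 hosts, 1369 (38.1%) had no sense site, among them 693 lncRNAs and 598 protein coding genes. In the 2227 genes with both, antisense reads made up 16.4% of the gene's reads at the median (quartiles 5.45 and 38.9%), and they outnumbered the sense reads in 373 genes (16.7%). Among genes with at least 16 reads in a model, antisense outnumbered sense in 299 of 2204 (13.6%) in AMPKα1 and in 498 of 1930 (25.8%) in AMPKα2. The genes with most antisense reads among those 373 were Atf2, Filip1l, Itga9, Jarid2, Zc3h7a, Apbb2, Sspn, Prkca, Il1rapl1 and Cmss1. Cmss1 had 5304 antisense and 138 sense reads in AMPKα1 and 906 and 99 in AMPKα2. In the other 9, the antisense reads came mostly from AMPKα2.

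**Figure D2:**
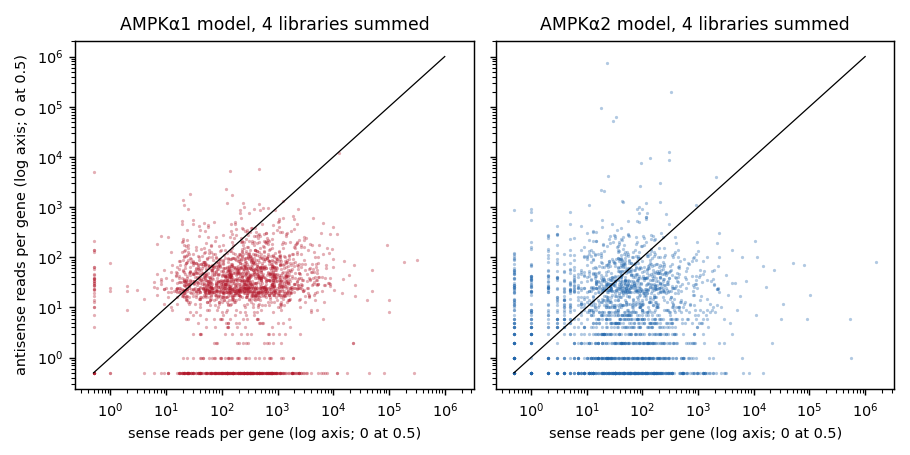
Antisense reads (y axis) against sense reads (x axis) of the 2227 genes with both kinds of site, summed over the 4 libraries of each model, on log axes with 0 drawn at 0.5; the line marks equal numbers. In AMPKα2 a few genes stand far above the line with few sense reads.

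The antisense read share was about 2% in AMPKα1 and near 20% in AMPKα2. Of the reads at gene-assigned sites, antisense sites took 2.16 and 2.11% in AMPKα1 KO, 1.33 and 2.22% in AMPKα1 WT, 22.4 and 17.3% in AMPKα2 KO and 17.2 and 20.9% in AMPKα2 WT. The 95% Wilson intervals were at most 0.0563 percentage points to each side, covering counting error only. All AMPKα2 libraries were above all AMPKα1 libraries, and KO and WT overlapped in both models. The means were 19.5% ± 2.61 (SD, n = 4) and 1.96% ± 0.419 (SD, n = 4), which differed by 17.5 percentage points (two-sided exact permutation p = 0.0286, the smallest 4 against 4 libraries allow, 0.0857 adjusted over 3 share comparisons). Within KO mice the difference was 17.7 and within WT mice 17.3 points, where 2 against 2 libraries cannot give an exact p below 0.333. KO and WT differed by 0.360 points in AMPKα1 (exact p = 1) and 0.777 in AMPKα2 (exact p = 0.667). Both turned when 1 library was left out, to -0.0846 without AMPKα1 WT 1 and to -1.77 without AMPKα2 KO 1 or -1.08 without AMPKα2 WT 1.

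The difference between the models lay in few sites. The 20 antisense sites with most reads held 81.9% of all antisense reads, and the single strongest 36.9%. They took at most 15.5% of antisense reads in any AMPKα1 library and 88.6 to 93.4% in the AMPKα2 libraries. Without them, the share was 1.77% ± 0.431 (SD, n = 4) in AMPKα1 and 1.95% ± 0.263 (SD, n = 4) in AMPKα2, a difference of 0.183 points. Since these 20 were ranked by reads over all libraries, most of them read mainly in AMPKα2, leaving them out lowers the AMPKα2 share by construction, so the remaining difference is a description with no test.

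**Figure D3:**
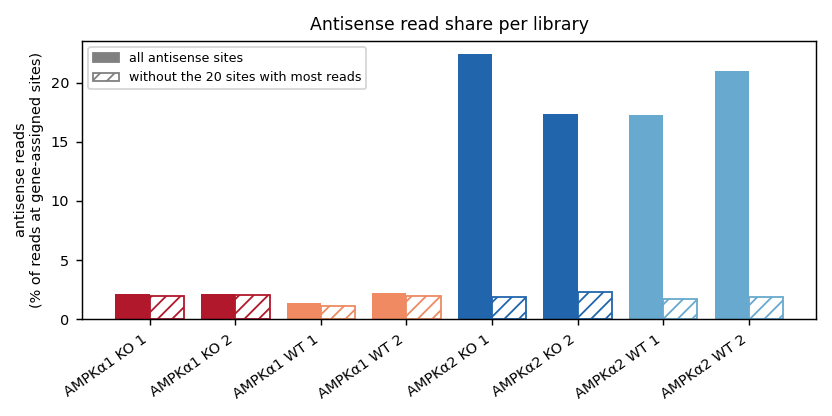
Antisense reads as a percent of reads at gene-assigned sites (y axis) in each of the 8 libraries (x axis), with all antisense sites (filled bars) and without the 20 sites with most reads (hatched bars). The filled bars of AMPKα2 reach 17.2 to 22.4%, while the hatched bars of all libraries lie between 1.13 and 2.33%.

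Of these 20 sites, 14 faced an intron, 15 had no annotated own-strand gene and 17 had more reads in AMPKα2. Atf2, which encodes a stress-activated transcription factor, held the strongest (chromosome 2, position 73868036, plus strand, in an intron). It had 48 and 58 reads in AMPKα1 KO, 10 and 44 in AMPKα1 WT, 198102 and 158615 in AMPKα2 KO and 174548 and 224969 in AMPKα2 WT. The models did not overlap, and KO and WT overlapped in AMPKα2. The sense sites of Atf2 held 64 reads in AMPKα1 and 23 in AMPKα2.

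The lncRNA Gm36876 (chromosome 11, 109011988, minus) had 52 and 7 reads in AMPKα1 KO, 101 and 257 in AMPKα1 WT, 76054 and 35360 in AMPKα2 KO and 106641 and 60070 in AMPKα2 WT. The Filip1l site lay in an intron of Cmss1 (chromosome 16, 57391594, minus), with 39, 17, 36 and 11 reads in AMPKα1 and 52563, 42150, 63018 and 38710 in AMPKα2. So the Cmss1 and Filip1l pair carried antisense sites in both directions, the strong one with at most 39 reads in any AMPKα1 library. Itga9, an integrin gene, had at most 6 reads per AMPKα1 library at chromosome 9, 118674952 (minus), and 25111, 23422, 17980 and 27128 in AMPKα2. The sites of LOC108168339 and Zc3h7a had 26657 to 60223 and 8929 to 18682 reads per AMPKα2 library and at most 8 and 17 in AMPKα1.

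No AMPKα1 library had a read at 7 of the 20 sites. They were those of Apbb2, Gm39850, Il1rapl1, Gm281, Fggy and Gm41804 and the second of Jarid2. The site of Apbb2, whose product binds amyloid precursor protein, had 2504, 1489, 5919 and 2458 reads in AMPKα2. On the TMM scale this was at least 4488-fold above a floor of 3 reads per AMPKα1 library. TMM factors were 1.61 to 2.47 in AMPKα1 and 0.374 to 0.539 in AMPKα2, so the fold is smaller by library totals. The 3 sites with more reads in AMPKα1 were those of Fhl3, Nmrk2 and Tmem132d. Fhl3, a LIM protein of muscle, had 2425 and 481 reads in AMPKα1 KO, 2368 and 6734 in AMPKα1 WT and 6 to 57 in AMPKα2. Its downstream bases were As throughout, as printed above. The site in Nmrk2, a nicotinamide riboside kinase of muscle, fell in an exon of Atcayos and had 333 to 2261 reads in AMPKα1 and 38 to 63 in AMPKα2.

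**Figure D4:**
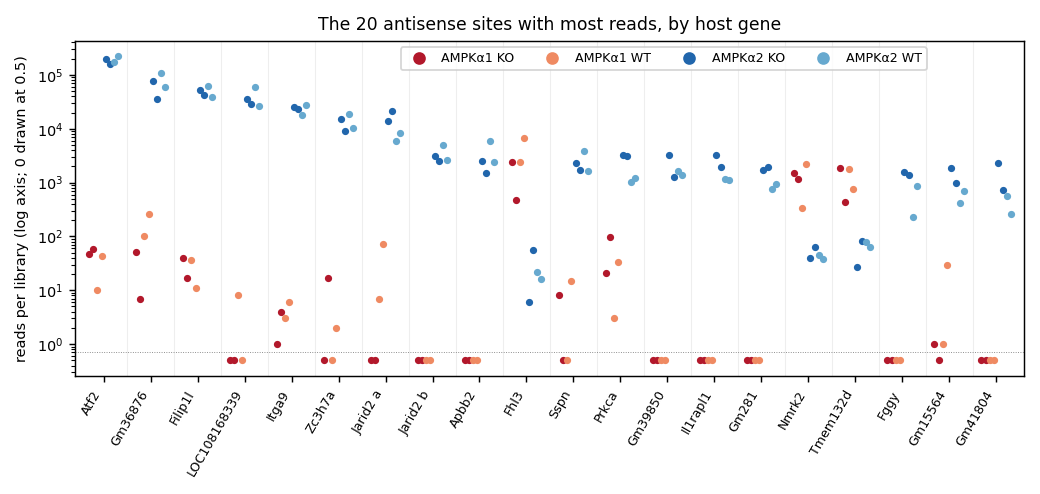
Reads per library (log y axis, 0 drawn at 0.5) at the 20 antisense sites with most reads, named by host gene (x axis); each point is 1 library, coloured by group, and a and b are the first and second Jarid2 site. At 17 sites the AMPKα2 points lie above the AMPKα1 points, and at Fhl3, Nmrk2 and Tmem132d below.

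Tested over all 56483 APSs with edgeR (quasi-likelihood test, TMM scaling, Benjamini-Hochberg adjusted p under 0.1), 1178 of 4926 antisense sites (23.9%) were higher and 109 (2.21%) lower in AMPKα2 than in AMPKα1. The background over all APSs was 19.7% higher and 2.43% lower, so the antisense shares were near it with this filter. With the stricter filter of filterByExpr, 481 of 1025 antisense sites were higher and 154 lower. Beside them, 5710 of 18612 of all APSs were higher and 1958 lower, so the antisense share called higher lay above the background there. DESeq2 called 1249 higher and 171 lower, against 22.0% and 4.43% of all APSs. The split moved with the scaling. By library totals alone, 946 were higher and 609 lower (8235 and 9449 of all APSs), and the median log2 difference of all APSs moved from 0.10 to -1.92. A site needed 16 reads over the 8 libraries, so one unread in a model entered through the other alone. Reads in AMPKα2 only were found for 824 antisense sites (16.7%) against 11.5% of sense sites. Reads in AMPKα1 only were found for 951 (19.3%) against 9.72%. Of the 1178, 822 had no read in AMPKα1 and 1060 had reads in all 4 AMPKα2 libraries. Of the 109, 36 had no read in AMPKα2. By library totals, sense reads of fibroblast markers (Col1a1, Col3a1, Dcn) were 7178 to 13149 CPM in AMPKα1 and 1160 to 1657 CPM in AMPKα2. Those of endothelial markers were 115 to 204 and 19.6 to 32.4 CPM, also without overlap. Adipocyte markers had 292 to 1847 CPM in AMPKα1, highest in AMPKα1 KO 2, and 95.3 to 412 in AMPKα2, and macrophage markers 19.5 to 46.6 and 16.5 to 21.7 CPM, both with overlap. Muscle markers were lower too by library totals, with 49486 to 84255 CPM in AMPKα1 and 35799 to 46593 in AMPKα2. All these CPM are by library totals, the scale with the median of -1.92 over all APSs, and overlap is stated for that scale only. TMM factors were 1.61 to 2.47 in AMPKα1 and 0.374 to 0.539 in AMPKα2. Divided by them, muscle and macrophage markers are higher in AMPKα2, and the fibroblast and endothelial ranges of the models overlap. The directions above thus depend on the scale. The part of these cells in the difference was not tested, and in bulk tissue fewer cells of a type and less RNA per cell cannot be told apart.

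Besides Atf2, Itga9 and Jarid2, the sites with the lowest p on the higher side were those of Dpysl5 and Morc1. Dpysl5, of a family that guides axons, had 1, 0, 0 and 0 reads in AMPKα1 and 454, 478, 391 and 354 in AMPKα2 (log2 difference 12.33 ± 0.64 SE, edgeR adjusted p = 1.94e-09). Morc1, a germ cell gene, had 0, 0, 1 and 1 reads in AMPKα1 and 247, 549, 830 and 479 in AMPKα2. On the lower side, St3gal3, a sialyltransferase gene, had 304, 342, 53 and 257 reads in AMPKα1 and none in AMPKα2. There it was at least 14.0-fold lower on the TMM scale (edgeR adjusted p = 1.79e-05). Pphln1 had 484, 163, 65 and 163 reads in AMPKα1 and none in AMPKα2, and Slitrk3 287, 282, 47 and 311 against 0, 0, 1 and 0. The site of the lncRNA Gm41995, in an intron of Mrps28, had 450, 359, 48 and 207 reads in AMPKα1 and 1, 1, 5 and 2 in AMPKα2.

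The antisense site of Eral1, a mitochondrial ribosome assembly factor, lay within 2000 bases downstream of Mir144 and Mir451a, a microRNA pair of red blood cell precursors. It had 436 and 215 reads in AMPKα1 KO, 147 and 428 in AMPKα1 WT and 0 to 5 in AMPKα2 (log2 difference -4.53 ± 0.68 SE, edgeR adjusted p = 0.000114). An A-rich stretch followed it. By library totals, erythroid marker reads (Hba-a1, Hbb-bs, Alas2) were not lower in AMPKα2, with 323 to 640 CPM in AMPKα1 and 647 to 881 in AMPKα2.

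Antisense reads relative to the sense reads of the same gene were higher in AMPKα2 in 531 of 2227 genes (23.8%) and lower in 125 (5.61%) (edgeR, strand by model interaction, adjusted p under 0.1). Ppargc1a, the coactivator that drives mitochondrial biogenesis, had 1 antisense and 769 sense reads in AMPKα1 and 206 and 116 in AMPKα2 (adjusted p = 0.00243). Prkca, which encodes protein kinase Cα, had 179 and 4116 reads in AMPKα1 and 8692 and 307 in AMPKα2 (edgeR adjusted p = 0.00243). Here the antisense reads were more and the sense reads fewer in the same libraries. On the lower side, Cdk8, a kinase of the Mediator complex, had 42 antisense and 1461 sense reads in AMPKα1 and 6 and 544342 in AMPKα2 (edgeR adjusted p = 0.00305). Kcnip1, a potassium channel regulator, had 63 and 16 in AMPKα1 and 66 and 14804 in AMPKα2. The others with the lowest p on that side were Dab1, a gene of neuronal migration, and the lncRNAs Gm33733 and Gm30821. At all 5 the sense reads were more in AMPKα2.

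Between AMPKα1 KO and WT, 0 of 3507 antisense sites passed edgeR's adjusted p under 0.1. The background over 44024 APSs was 0.0% higher and 0.00454% lower. An unadjusted p under 0.05 was reached by 33 antisense sites (0.941%) against 3.07% of all APSs. With the stricter filter of filterByExpr it was reached by 115 of 1265 antisense sites and 2228 of 23028 APSs, shares near each other. DESeq2, whose fit held 4102 antisense sites, called 1 higher and 4 lower. Over the 49369 APSs of that fit it called 43 higher (0.0871%) and 175 lower (0.354%). The lowest p was at Slc36a2, an amino acid transporter gene, with 0 and 2 reads in KO against 99 and 151 in WT at chromosome 11, 55173789 (plus strand, edgeR adjusted p = 0.311, DESeq2 0.00477). Cdk5rap1, an enzyme that modifies mitochondrial tRNA, had 1 and 1 reads in KO against 123 and 31 in WT (edgeR adjusted p = 0.543, DESeq2 0.0246). Hhatl, a muscle membrane protein gene, had no read in KO but 45 and 65 in WT. On the TMM scale this was a deficit of at least 28.3-fold (adjusted p = 0.543 by edgeR and 0.0461 by DESeq2). The groups did not overlap at these sites, and with such counts the edgeR and DESeq2 calls differed.

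The antisense site of Pitpnc1, a phosphatidylinositol transfer protein gene, had 653 and 198 reads in AMPKα1 KO and 12 and 72 in WT (log2 fold change 3.01 ± 0.82 SE, edgeR adjusted p = 0.543, DESeq2 0.0979). It is the site with 15 As downstream printed above and lies 39 bases from a sense site. Mapk14, encoding p38α, had 113 and 87 reads in KO against 3 and 0 in WT (edgeR adjusted p = 0.543). LOC108167926, whose site falls in an intron of Stat3, had 115 and 120 in KO and 3 and 11 in WT (edgeR adjusted p = 0.543). Flrt1 had 25 and 81 reads in KO and none in WT. The 127 reads of Zbtb16 in AMPKα1 KO came from 1 mouse, and the other KO mouse and both WT mice had none. Gm42002, called by DESeq2, had 36 and 49 reads in WT and none in KO. Fhl3 and Gm36876 were the other sites with a low p, both with fewer reads in KO (edgeR adjusted p = 0.543).

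Between AMPKα2 KO and WT, 0 of 1589 antisense sites passed edgeR's adjusted p under 0.1. The background over 23218 APSs was 0.0258% higher and 0.0301% lower. An unadjusted p under 0.05 was reached by 192 antisense sites (12.1%), 135 of them with more reads in KO, against 7.59% of all APSs. DESeq2, whose fit held 3975 antisense sites, called 13 higher in KO and 0 lower. Over the 50017 APSs of that fit it called 81 higher (0.162%) and 15 lower (0.03%). The lowest p was at Ripk4, a kinase gene of skin and other epithelia, with 190 and 303 reads in KO against 107 and 75 in WT (log2 fold change 1.72 ± 0.33 SE, edgeR adjusted p = 0.359, DESeq2 0.0240). Prss47, a serine protease gene, had 714 and 739 in KO and 351 and 208 in WT (log2 fold change 1.75 ± 0.34 SE, edgeR adjusted p = 0.359, DESeq2 0.0108). Prkca had 3310 and 3152 in KO and 1038 and 1192 in WT (log2 fold change 1.81 ± 0.41 SE, edgeR adjusted p = 0.462, DESeq2 0.0153). KO and WT libraries did not overlap at any of these 3 sites.

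The other sites that DESeq2 called were those of Zfp972, Klf14, Lats2, Kcnj4, Il1rapl1, Rapgef4, Atp10a, Gm41804, Mid1ip1 and Jarid2. Lats2, a kinase of the Hippo pathway, had 105 and 52 reads in KO against 18 and 15 in WT (edgeR adjusted p = 0.462, DESeq2 0.0188). Kcnj4, a potassium channel gene, had 801 and 960 in KO and 467 and 394 in WT (edgeR adjusted p = 0.502, DESeq2 0.0950). At Atp10a 1 KO mouse had 129 reads and the other 12, against 18 and 8 in WT, so the groups overlapped. Impdh1, of guanine nucleotide synthesis, had 33 and 42 reads in KO against 14 and 8 in WT, and Smarcc1, a chromatin remodelling subunit, 45 and 46 against 12 and 12 (edgeR adjusted p = 0.462 for both). Syt1, a synaptic vesicle gene, had 14 and 9 in KO and none in WT. With fewer reads in KO, Usp19, a deubiquitinase gene, had 2 and 0 in KO and 15 and 24 in WT, and Gm41414 had 1 and 1 against 22 and 10. Gm14342 had 69 and 144 in KO and 472 and 197 in WT (edgeR adjusted p = 0.572).

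A KO effect that differed between the models was called at 2 antisense sites (0.0406% of 4926), both on the side of a larger KO over WT ratio in AMPKα2. The background over all APSs was 0.129% on that side and 0.0142% on the other. An unadjusted p under 0.05 was reached by 165 antisense sites (3.35%), a lower share than the 6.96% of all APSs. DESeq2 called 7 antisense sites on the side of AMPKα2 and 0 on the other, against 0.34% and 0.0354% of all APSs. Beside Jarid2 and Sh2d7 these were sites of Cdk5rap1, Hhatl, Ube2d1, Usp13 and Gm15564. At Jarid2, whose product recruits Polycomb repressive complex 2, the site at chromosome 13, 44869570 (minus) had 0 and 0 reads in AMPKα1 KO, 7 and 73 in AMPKα1 WT, 13951 and 21543 in AMPKα2 KO and 5890 and 8312 in AMPKα2 WT (edgeR adjusted p = 0.0207, DESeq2 0.000239). KO exceeded WT in AMPKα2 and the reverse held in AMPKα1. The second Jarid2 site, 245 bases away, had no AMPKα1 read and 3158 and 2530 in AMPKα2 KO against 4995 and 2673 in WT. At Sh2d7, the site in an exon of Cib2 at chromosome 9, 54545050 (minus), near the Sh2d7 site printed above, reads were 0 and 0, 20 and 37, 33 and 57, and 66 and 28 in the same order (edgeR adjusted p = 0.0303, DESeq2 0.0161). Neither call held without AMPKα2 KO 1 (adjusted p = 0.572 for both) or AMPKα2 KO 2 (0.363 for Jarid2), and Sh2d7 was also lost without AMPKα2 WT 1 (0.193) or AMPKα2 WT 2 (0.352).

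Relative to sense reads, antisense reads passed the test in 0 of 1555 genes between KO and WT in AMPKα1 and in 0 of 676 in AMPKα2, where the background is the same set (0.0%). An unadjusted p under 0.05 was reached by 36 genes (2.32%) and by 50 (7.40%), 40 of the latter with more antisense in KO. In AMPKα1, Fam178b, Dnm1l, Caskin2, Gm14403 and Rasgrf2 had the lowest p on the higher side and Fam210a, Hhatl, Tada1, Sec24c and Arih1 on the lower (edgeR adjusted p = 1 for each). In AMPKα2, Syt1, Lats2, Slc38a1, Smarcc1 and Shoc2 had the lowest p on the higher side and Usp19, Ncoa2, Myh1, Det1 and Uvrag on the lower, with edgeR adjusted p of 0.494 to 0.560.

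Of 36 sarcomere genes described here, 5 had 10 antisense sites with 796 reads, beside 3396816 sense reads. Myh1, the fast myosin heavy chain of type IIx fibres, held 6 of the 10, and 5 of these lay in or just downstream of Myhas, an antisense RNA of the myosin heavy chain cluster. Summed, the Myh1 antisense reads were 163 and 39 in AMPKα1 KO, 169 and 116 in AMPKα1 WT, 4 and 5 in AMPKα2 KO and 49 and 44 in AMPKα2 WT. In AMPKα2 both KO mice lay below both WT mice, and in AMPKα1 the groups overlapped. Myh1 sense reads were 3197 and 2661 in AMPKα2 KO and 3422 and 2241 in WT. The strongest of the 6 (chromosome 11, 67224194, minus, in an intron of Myhas) had 1 and 0 in AMPKα2 KO and 23 and 17 in WT (log2 fold change -4.73 ± 0.98 SE, edgeR adjusted p = 0.413), and the one at 67218689 had none in KO and 8 and 11 in WT (edgeR adjusted p = 0.502). The ratio to sense reads gave an edgeR adjusted p of 0.494. None was called in either model, of 10 tested in AMPKα1 and 4 in AMPKα2. The median log2 fold change in AMPKα1 was -1.98, beside 0.25 over all antisense sites tested.

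Myh2, the type IIa myosin gene, had 1 antisense site in an exon of 9430073C21Rik with 0 and 0 reads in AMPKα1 KO and 11 and 44 in WT. Of 12 calcium handling genes, 5 had 8 antisense sites, 4 of them in Trdn, which encodes triadin of the calcium release complex, and none was called between KO and WT. Mybpc2, Tpm1 and Des of the sarcomere and Atp2a1 and Atp2a2, the calcium pumps, had 1 site each with 22 to 86 reads. Casq1, the calcium store protein of fast fibres, had 209 of its 216 reads in 1 AMPKα2 WT library. Pvalb, the calcium buffer parvalbumin, had 18 and 36 reads in AMPKα2 KO and 14 and 2 in WT. Of 13 energy metabolism genes measured, only Aldoa, a glycolytic enzyme gene, had an antisense site, which lay in an intron of Fam57b and had 9, 12, 19 and 38 reads in AMPKα2 and none in AMPKα1.

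Of 9 AMPK subunit and kinase genes, Stk11 and Prkaa1 had antisense sites. Stk11, which encodes the upstream kinase LKB1, had 2, the first with 25, 27, 20 and 46 reads in AMPKα1 and 7, 7, 8 and 4 in AMPKα2. The Prkaa1 site (chromosome 15, 5146418, minus, opposite an intron) had no read in AMPKα1, KO or WT, and 10 and 8 in AMPKα2 KO and 14 and 2 in AMPKα2 WT. The second Stk11 site had 3 and 3 reads in AMPKα2 KO and 8 and 9 in WT. KO and WT overlapped in AMPKα2 at the first Stk11 site and at Prkaa1, and edgeR called none of the 3 sites between KO and WT.

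**Figure D5:**
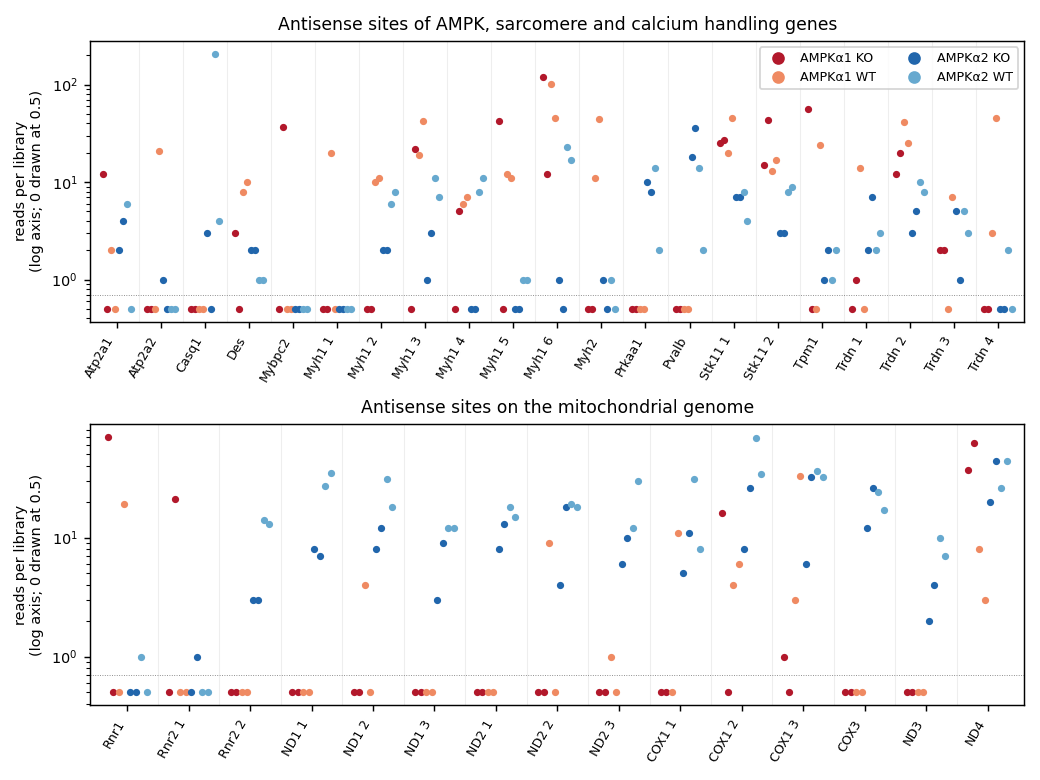
Reads per library (log y axis, 0 drawn at 0.5) at antisense sites of AMPK, sarcomere and calcium handling genes (top) and on the mitochondrial genome (bottom), numbered by position within a gene; each point is 1 library, coloured by group. At the Myh1 sites the AMPKα2 KO points lie at 0 to 3 reads, and on the mitochondrial genome most AMPKα1 points lie at 0.

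Among 22 measured clock genes and textbook overlapping pairs, 7 had 8 antisense sites. Per2, a core clock repressor, had none in AMPKα1 and 128 and 179 reads in AMPKα2 KO and 87 and 154 in WT, opposite an exon. On the TMM scale it was at least 221-fold above the floor of AMPKα1 (edgeR adjusted p = 1.22e-07 between models), and less by library totals. Its sense reads were 83 in AMPKα1 and 1 in AMPKα2. Known pairs were seen at low depth. Igf2r, the imprinted receptor gene, had 2 sites in introns of Airn with 53 and 57 reads, Thra had 1 site downstream of Nr1d1, 1 base from a sense site, with 20 reads, and Nudt6 had 1 site downstream of Fgf2 with 100 and 6 reads in AMPKα1 KO, 36 and 0 in AMPKα1 WT and 8 in all of AMPKα2. Gnas, Mest and Dhps had 1 site each. None of these 8 was called between KO and WT. Of 7 noncoding RNA hosts measured, H19 had 1 antisense site (29 of 38 reads in 1 AMPKα1 KO library) and Mirg 1 (1 read in AMPKα1 and 6, 13, 6 and 7 in AMPKα2).

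The mitochondrial genome held 15 antisense sites, all on the minus strand, out of 26 sites there. Both strands of this genome are transcribed along their length, and the minus-strand RNA opposite most genes is rapidly degraded. The sites faced Rnr1, Rnr2, ND1, ND2, COX1, COX3, ND3 and ND4. They were read at 13 or 14 of the 15 positions in every AMPKα2 library and at 2 to 6 in the AMPKα1 libraries. Summed reads were 124 and 83 in AMPKα1 KO, 29 and 72 in AMPKα1 WT, 93 and 216 in AMPKα2 KO and 329 and 283 in AMPKα2 WT. Between the models, edgeR called 13 of the 15 higher in AMPKα2, against 19.7% of all APSs. By library totals alone 8 were called higher and 1 lower, against 8235 and 9449 of all APSs. Between AMPKα2 KO and WT, 12 of 13 tested had a log2 fold change below 0 (median -0.90, against 0.12 for all antisense sites tested), 3 had an unadjusted p under 0.05 and none was called by edgeR. The site in ND1 at position 2794 had 8 and 7 reads in AMPKα2 KO and 27 and 35 in WT (log2 fold change -1.79 ± 0.60 SE, edgeR adjusted p = 0.626), and the ND4 site had 20 and 44 in KO and 26 and 44 in WT.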

How the data were processed

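The authors built WTTS-seq libraries from gastrocnemius RNA, sequenced them on an Ion Torrent instrument, trimmed leading Ts, mapped the reads with TMAP to GRCm38 (p5 in the submitters' processing notes), clustered read ends within 24 bases into APSs and assigned genes with Cuffcompare. The deposited values are raw read counts per APS in 8 libraries, and every APS in the table has at least 16 reads in all. Replicates were not pooled.

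Antisense sites were the rows with a gene whose strand was not the strand of the site. Members and gene lists were chosen with earlier results of these data known. Rows without a gene (1.88 to 17.9% of a library's reads) stayed in library sizes and in the fits, since they are sites. Counts were tested with edgeR 4.0.16 in R 4.3.3 (robust quasi-likelihood, TMM, at least 16 reads over the libraries of a fit, adjusted p under 0.1) on all APSs. DESeq2 1.42.0, the tool of the authors, was an alternative. The KO against WT fits used the 4 libraries of a model, and the model and interaction fits all 8. The antisense to sense ratio was a strand by group interaction on summed reads of a gene. Shares were compared by two-sided exact permutation over libraries (scipy 1.17.1). Features were compared within each library, and no p is given for them. Scripts were tested on simulated data. Named sites were the 20 with most reads, the 5 with lowest p in each direction and comparison, interaction calls, list members, the 10 genes with most antisense sites, the 10 with most antisense reads above their sense reads and the 5 with lowest p of the ratio test. Mitochondrial sites, sites called by DESeq2 alone and those printed with sequence were chosen after their values were seen. Own and opposite strand features came from GENCODE release 21. Bases were rebuilt from its transcripts and RefSeq promoter windows, which matched at all 3304348 bases shared. The 3′ decile of the host was added as a feature after seeing the data. 1 sarcomere gene and 1 of the cell type marker lists are not reported here. Same-numbered replicates are not paired in the labels.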

Additional observations from a re-analysis of the deposited data

Results flagged for a closer look

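The KO effect differed between the models at 2 antisense sites by the interaction test. At Jarid2 (chromosome 13, 44869570) the edgeR adjusted p was 0.0207, with 0 and 0 reads in AMPKα1 KO and 7 and 73 in AMPKα1 WT, and with 13951 and 21543 reads in AMPKα2 KO and 5890 and 8312 in AMPKα2 WT. At Sh2d7 (chromosome 9, 54545050) the edgeR adjusted p was 0.0303, with 0 and 0, 20 and 37, 33 and 57, and 66 and 28 reads in the same order. Both rest on 2 AMPKα1 KO libraries with no read.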

How the results depend on the processing

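The antisense share differed between the models by 16.5 to 18.3 points when 1 library was left out (exact p = 0.0571, the smallest 4 against 3 allow) and by 0.183 without the 20 strongest sites. The KO minus WT share ranged from -0.0846 (without AMPKα1 WT 1) to 0.805 in AMPKα1 and from -1.77 (without AMPKα2 KO 1) to 3.32 in AMPKα2, with -1.08 without AMPKα2 WT 1. Antisense sites called higher and lower in AMPKα1 KO (0 and 0) were 1 and 4 by DESeq2, 1 and 1 by library totals and 0 and 10 with all 8 libraries in the fit. In AMPKα2 KO (0 and 0) they were 13 and 0 by DESeq2, 1 and 1 by library totals and 67 and 20 with no filter. In both models the calls also moved when 1 library was left out, over antisense sites and over all APSs. Each of those KO against WT fits leaves 1 mouse in a group. The replicate numbers do not pair the samples (correlation of same-numbered deviations 0.0068 in AMPKα1 and 0.0273 in AMPKα2). A replicate block gave 61 higher and 30 lower of 1589 in AMPKα2 KO, beside 368 and 151 of 23218 APSs. Calls over all APSs moved in the other fits too. In AMPKα1 KO they were 29 and 403 of 56483 with all 8 libraries and 18 and 30 of 44024 by library totals. In AMPKα2 KO they were 15 and 27 of 23218 by library totals. With no filter they were 425 and 132 of 50017 there, where 3975 antisense sites were tested. Interaction calls (2 and 0) were 7 by DESeq2, 0 by library totals, 0 with filterByExpr and 1 with the replicate block, and 0 to 24 higher and 0 to 4 lower leaving out 1 library. Of those fits, 24 were higher without AMPKα1 KO 1, 19 without AMPKα1 KO 2, 5 without AMPKα1 WT 2, 1 without AMPKα2 WT 1 or AMPKα2 WT 2 and 0 without AMPKα2 KO 1 or AMPKα2 KO 2. Interaction calls over all APSs moved with the library left out as well, so that shift was not particular to antisense sites. Each of those interaction fits also leaves 1 mouse in a group. Between the models (1178 and 109), DESeq2 called 171 lower and library totals 609 lower, beside 2501 and 9449 of all APSs. The filterByExpr fit called 481 of 1025 antisense sites higher, beside 5710 of 18612 of all APSs. Leaving out 1 library gave 939 to 1190 higher and 68 (without AMPKα2 KO 1) to 126 lower. Genes with a ratio lower in AMPKα2 (125) were 60 at adjusted p under 0.05, and those higher (531) were 283 with at least 50 reads on each strand. Leaving out 1 library gave 329 (without AMPKα2 KO 2) to 563 higher and 41 (without AMPKα2 KO 2) to 194 (without AMPKα1 KO 2) lower, with 44 without AMPKα2 KO 1 and 53 without AMPKα2 WT 1 or AMPKα2 WT 2. Ratio calls in AMPKα2 KO (0 and 0) were 0 to 12 higher (12 without AMPKα2 WT 2) and 0 to 7 lower (7 without AMPKα2 WT 1, 4 without AMPKα2 WT 2). The causes of these shifts were not tested. No named site changed direction under an alternative run on it. The shares by own-strand gene, lncRNA host and 3′ decile kept direction in all of theirs.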
